A study of Homo sapiens with 6 samples.

Results

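The enzymes of serine synthesis and of the folate one-carbon cycle were followed as 9 listed genes among the 60658 gene identifiers quantified in each library. They were chosen by name, with earlier results of these data known, and were divided by the compartment in which the enzyme works. PHGDH, PSAT1 and PSPH make serine in the cytosol, SHMT1 and MTHFD1 are cytosolic folate enzymes, and SHMT2, MTHFD2, MTHFD1L and ALDH1L2 are mitochondrial folate enzymes. RNA was sequenced from C4-2B MDVR and CWR22Rv1 cells, which are castration-resistant prostate cancer lines, after 48 h with DMSO vehicle, apoptozole (APO, 10 µM) or VER155008 (VER, 10 µM), which are small-molecule inhibitors of the chaperone HSP70. Enzalutamide, an antiandrogen, was in the maintenance medium of the C4-2B MDVR line at 20 µM, and was not in that of CWR22Rv1. The paper describes both lines as resistant to enzalutamide. Whether enzalutamide was present during the treatment is not given in the sources used here, and the source field of the labels names the first line only as LNCaP-C4-2B. Each of the 6 conditions had 1 library, so no difference below has a replicate check, no test was made and no p-value is given. For the same reason it cannot be said which neighbours in an order of levels differ beyond their spread.

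Serine is made from a glycolytic intermediate in a chain of reactions run by PHGDH, which oxidizes phosphoglycerate, PSAT1, which moves an amino group from glutamate, and PSPH, which removes the phosphate. Serine hydroxymethyltransferases (SHMT1 in the cytosol, SHMT2 in mitochondria) split serine into glycine and a one-carbon unit carried by tetrahydrofolate. In mitochondria MTHFD2 oxidizes this unit and MTHFD1L releases it as formate, and in the cytosol the trifunctional enzyme MTHFD1 takes formate up again for the synthesis of purines and thymidylate. PHGDH, PSAT1, SHMT2 and MTHFD2 are known targets of the stress transcription factor ATF4.

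The values are FPKM from Cuffnorm, in which fragments are scaled by the length of the transcript and by library, which allows levels to be compared between genes. FPKM carry no read totals. From the spacing of low values the other 5 libraries were 1.15 to 1.64 times as deep as the DMSO control of C4-2B MDVR, the least deeply sequenced. Genes of the mitochondrial chromosome held 25.7% of all FPKM in the DMSO and VER libraries of CWR22Rv1 and 10.4% in its APO library. In the C4-2B MDVR libraries they held 14.8% to 16.4%. Despite the different share, the median change of genes above 1 FPKM with APO in CWR22Rv1 cells was 0.007 on the log2 scale. It was -0.145 after rescaling without that chromosome. The luminal prostate markers KLK3, KLK2, HOXB13 and TMPRSS2 were all present in both DMSO libraries (KLK3 at 77.8 and 30.2 FPKM). These 4 were lower with either inhibitor in C4-2B MDVR cells and with APO in CWR22Rv1 cells, and 3 were lower and TMPRSS2 higher with VER in CWR22Rv1 cells, and their part in the results below was not tested. All 9 enzymes were above 0.1 FPKM in all 6 libraries, so none was removed by the filter on low values.

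With either inhibitor the serine synthesis enzymes were 1.47-fold to 3.37-fold higher than with DMSO in both lines, and the cytosolic folate enzymes were 1.53-fold to 2.41-fold lower. The mitochondrial folate enzymes were 1.22-fold to 8.93-fold higher, except MTHFD1L with VER in CWR22Rv1 cells, which was 1.16-fold lower. Changes are given as log2(FPKM + 0.1) minus its value in the DMSO library of the same line, and a gene was counted as higher or lower past 1.2-fold. In C4-2B MDVR cells 7 of the 9 genes were higher and 2 lower with APO, where 37.7% and 35.4% of all genes compared were higher and lower. The same 7 and 2 genes were higher and lower in C4-2B MDVR cells with VER, against 35.6% and 34.9% of all genes. In CWR22Rv1 cells 7 were higher and 2 lower with APO (35.6% and 39.2% of all genes), and 6 were higher and 2 lower with VER (32.1% and 32.3%). PHGDH, PSAT1, PSPH, SHMT2, MTHFD2 and ALDH1L2 were higher in all 4 inhibitor contrasts, 6 of 9 genes against 9.59% of the 18059 genes compared in both lines. SHMT1 and MTHFD1 were lower in all 4, against 11.3% of all genes. The APO and VER contrasts of a line share its DMSO library, so an error in that library enters both. The 9 genes together made up 0.120% of the FPKM of the C4-2B MDVR control, 0.263% with APO and 0.252% with VER, and 0.105%, 0.270% and 0.133% of the FPKM of the CWR22Rv1 libraries in the same order.

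**Figure D1:**
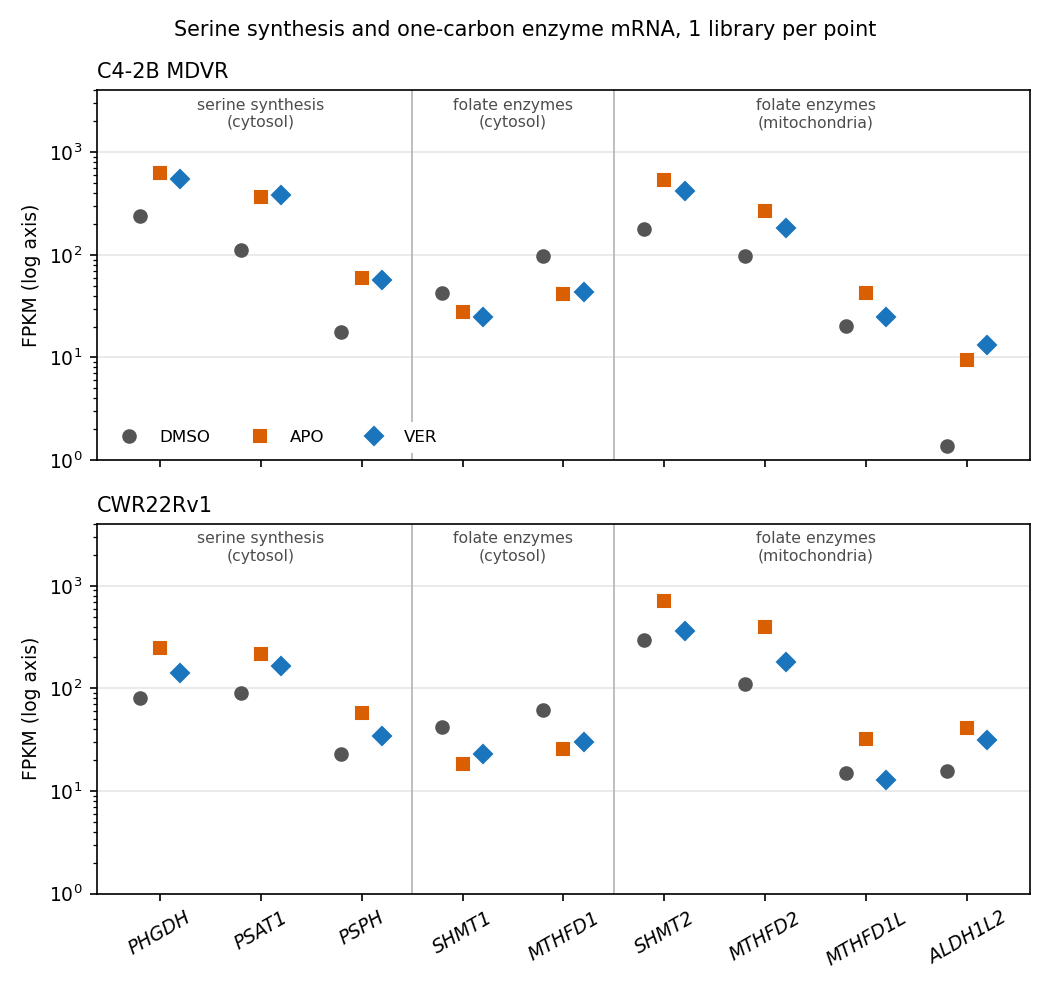
FPKM (log axis) of the 9 enzymes with DMSO (circles), APO (squares) and VER (diamonds) in C4-2B MDVR cells (top) and CWR22Rv1 cells (bottom), 1 library per point. The DMSO point lies below both inhibitor points for PHGDH, PSAT1, PSPH, SHMT2, MTHFD2 and ALDH1L2 in both lines and above them for SHMT1 and MTHFD1, while MTHFD1L with VER is at 24.8 against 20.2 FPKM in the first line and 12.8 against 14.8 FPKM in the second.

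Among the serine synthesis enzymes, PHGDH (ENSG00000092621), the entry enzyme of the pathway, lies on chromosome 1 of GRCh38 from 119648411 to 119744226 in GENCODE 29. It was at 241 FPKM under DMSO, 623 under APO and 553 under VER in C4-2B MDVR cells, and at 80.7, 249 and 142 FPKM in CWR22Rv1 cells. On the log2 scale it was 1.37 (APO) and 1.19 (VER) above the control in the first line and 1.63 and 0.81 above it in the second. It was the most abundant of the 9 mRNAs in every C4-2B MDVR library, and its DMSO level in that line was 2.99-fold that of CWR22Rv1.

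PSAT1 (ENSG00000135069), the phosphoserine aminotransferase on chromosome 9 from 78297143 to 78330093, stood at 113 FPKM under DMSO, 363 under APO and 380.4 under VER in C4-2B MDVR cells. In CWR22Rv1 cells it was at 91.0 FPKM with DMSO, 216 with APO and 164 with VER. Both inhibitor libraries of the first line were thus more than 3-fold above their control, at log2 fold changes of 1.69 and 1.75, while those of the second line were at 1.24 and 0.85. PSPH (ENSG00000146733), the phosphatase of the last step on chromosome 7 from 56011051 to 56051604, was the least abundant of the serine synthesis mRNAs. Its levels were 17.6 FPKM under DMSO, 59.1 under APO and 57.2 under VER in C4-2B MDVR cells, and 23.1, 57.0 and 34.0 FPKM in CWR22Rv1 cells. The corresponding log2 fold changes were 1.74, 1.69, 1.30 and 0.56. The median of the serine synthesis enzymes was 1.69 with either inhibitor in C4-2B MDVR cells and 1.30 under APO and 0.81 under VER in CWR22Rv1 cells, beside medians of all genes compared between -0.01 and 0.00.

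The cytosolic folate enzymes were lower in each inhibitor library than in its control. MTHFD1 (ENSG00000100714), on chromosome 14 from 64388031 to 64463457, was at 98.3 FPKM under DMSO, 41.5 under APO and 43.5 under VER in C4-2B MDVR cells, and at 61.7, 25.6 and 30.1 FPKM in CWR22Rv1 cells. It was the only one of the 9 genes past 2-fold in the same direction in all 4 contrasts, with log2 fold changes of -1.24, -1.17, -1.27 and -1.03, and 1.25% of all genes compared in both lines were lower by that much. SHMT1 (ENSG00000176974), on chromosome 17 from 18327860 to 18363563, had nearly the same DMSO level in both lines, 42.4 FPKM in C4-2B MDVR and 41.9 FPKM in CWR22Rv1 cells. With APO and VER it was at 27.6 and 24.5 FPKM in the first line and at 18.2 and 23.1 FPKM in the second, log2 fold changes of -0.62, -0.79, -1.20 and -0.86. All inhibitor libraries thus lay below both controls for either gene. Listed markers of S phase and of cycling cells moved the same way. All 10 genes of that list, among them PCNA, MCM2, RRM2 and MKI67, were lower in each of the 4 contrasts, against 11.3% of the genes compared in both lines. Their medians were -1.63 (APO) and -2.08 (VER) in the first line and -1.62 and -0.99 in the second. Their part in the lower MTHFD1 and SHMT1 was not tested. In bulk RNA a smaller share of cells in a given state and less mRNA per cell cannot be told apart.

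All mitochondrial folate enzymes were higher with APO in both lines. SHMT2 (ENSG00000182199), on chromosome 12 from 57229327 to 57234935, was the most abundant of the 9 mRNAs in every CWR22Rv1 library. It was at 177 FPKM under DMSO, 536 under APO and 420.4 under VER in C4-2B MDVR cells, and at 294, 715 and 359 FPKM in CWR22Rv1 cells. On the log2 scale the changes were 1.60 and 1.25 with APO and VER in the first line and 1.28 and 0.29 in the second, and the last was 0.22, under 1.2-fold, after rescaling all libraries to an equal sum with or without the mitochondrial chromosome. MTHFD2 (ENSG00000065911), the mitochondrial dehydrogenase and cyclohydrolase on chromosome 2 from 74198562 to 74217565, went from 97.4 FPKM with DMSO to 265 under APO and 182 under VER in C4-2B MDVR cells. In CWR22Rv1 cells it was at 111, 392 and 183 FPKM. Its log2 fold change of 1.82 with APO in CWR22Rv1 cells was the largest of the 9 genes in that contrast, where 4.75% of all genes were at least as far up, and the others were 1.44 under APO and 0.90 under VER in C4-2B MDVR cells and 0.72 with VER in CWR22Rv1 cells.

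MTHFD1L (ENSG00000120254), the mitochondrial formyl-tetrahydrofolate synthetase on chromosome 6 from 150865549 to 151101887, was the exception among the mitochondrial enzymes with VER. It was at 20.2 FPKM under DMSO, 42.8 under APO and 24.8 under VER in C4-2B MDVR cells, and at 14.8, 31.8 and 12.8 FPKM in CWR22Rv1 cells. With APO its log2 fold changes were 1.08 and 1.10, close to each other, while with VER they were 0.29 and -0.21. The value of -0.21 is under 1.2-fold, but became -0.28 after rescaling all libraries to an equal sum. ALDH1L2 (ENSG00000136010), the mitochondrial formyl-tetrahydrofolate dehydrogenase on chromosome 12 from 105019784 to 105084577, was the enzyme with the widest range. It was at 1.38 FPKM in the C4-2B MDVR control, the lowest value of any of the 9 genes, and at 9.49 and 13.2 FPKM with APO and VER, which is 2.69 and 3.16 above it on the log2 scale. In CWR22Rv1 cells it was at 15.6 FPKM with DMSO, 41.2 with APO and 31.1 with VER, which is 1.39 and 0.99 above the control on the log2 scale. In C4-2B MDVR cells 2.12% and 1.08% of all genes compared were at least as far up with APO and VER. Its level with either inhibitor in C4-2B MDVR cells was still under the DMSO level of CWR22Rv1 cells.

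**Figure D2:**
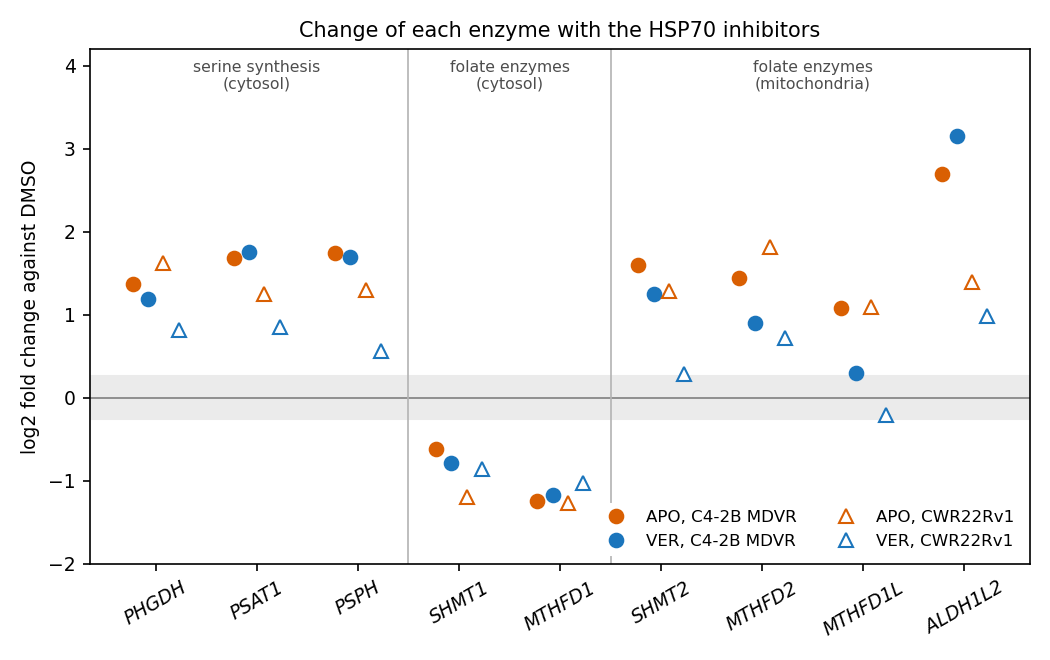
Log2 fold change against DMSO of the same line for the 9 enzymes, with APO (orange) and VER (blue) in C4-2B MDVR cells (filled circles) and CWR22Rv1 cells (open triangles), 1 library against 1 library per point. The grey band marks changes under 1.2-fold, and MTHFD1L with VER in CWR22Rv1 cells, at -0.21, is the only point inside it.

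The 2 compartments were compared within each library, where a ratio of FPKM does not depend on how the library was scaled. The ratio of SHMT2 to SHMT1 was 4.18 under DMSO, 19.4 under APO and 17.1 under VER in C4-2B MDVR cells. In CWR22Rv1 cells it was 7.02, 39.4 and 15.5. All inhibitor libraries were above both controls, by 4.64-fold and 4.10-fold over the control of the line in C4-2B MDVR cells and by 5.61-fold and 2.21-fold in CWR22Rv1 cells. MTHFD2 and MTHFD1 were nearly equal in the C4-2B MDVR control, at a ratio of 0.99, and with APO and VER the ratio was 6.38 and 4.17. In CWR22Rv1 cells the ratio of MTHFD2 to MTHFD1 was 1.80 with DMSO, 15.3 with APO and 6.06 with VER. MTHFD1L, whose synthetase activity is one of those of MTHFD1, was the less abundant partner in both controls, at ratios to MTHFD1 of 0.205 and 0.240. With APO it was at or just above parity, at 1.03 in the first line and 1.24 in the second, and with VER the ratios were 0.569 and 0.424.

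**Figure D3:**
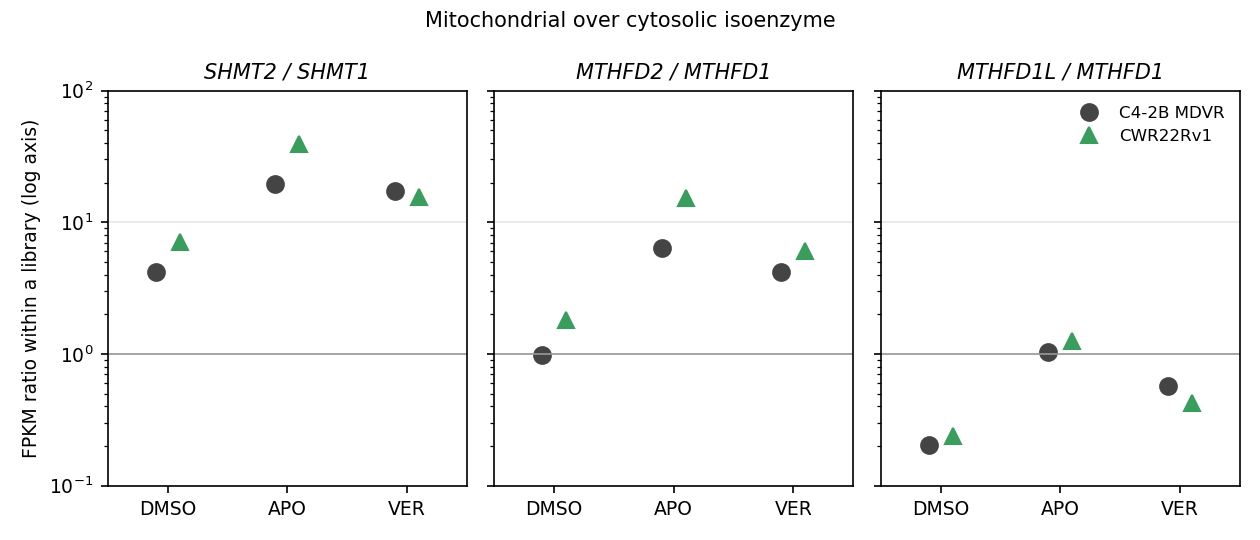
Ratio of the FPKM of a mitochondrial enzyme to that of its cytosolic counterpart within each library (log axis), for C4-2B MDVR (circles) and CWR22Rv1 cells (triangles), 1 library per point. In each panel both DMSO points lie below all APO and VER points, and the highest point of each panel is that of CWR22Rv1 cells with APO, at 39.4, 15.3 and 1.24.

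Summed over the genes, the mitochondrial folate enzymes had 2.10 times the FPKM of the cytosolic ones under DMSO, 12.3 times under APO and 9.40 times under VER in C4-2B MDVR, and 4.21, 27.0 and 11.0 times in CWR22Rv1 cells. The sum is carried mostly by SHMT2 and MTHFD2. With geometric means in place of sums, in which each gene counts alike, the ratios were 0.408, 2.57 and 2.16 in C4-2B MDVR and 1.03, 6.43 and 2.71 in CWR22Rv1 cells, so the order of the libraries within a line did not depend on this choice. The median log2 fold change of the mitochondrial enzymes exceeded that of the cytosolic ones by 2.45 under APO and 2.05 under VER in C4-2B MDVR cells and by 2.57 and 1.45 in CWR22Rv1 cells. The groups did not overlap in any of the 4 contrasts. How often other sets of so few genes separate in this way was not computed, so the separation has no background beside it. The genes were also chosen with earlier results known. The gap between the lowest mitochondrial and the highest cytosolic enzyme was narrowest with VER in CWR22Rv1 cells, at 0.64, between MTHFD1L and SHMT1. Serine synthesis, although cytosolic, went with the mitochondrial enzymes, and the sum of PHGDH, PSAT1 and PSPH was 2.64 times that of SHMT1 and MTHFD1 under DMSO, 15.1 times under APO and 14.6 times under VER in C4-2B MDVR cells. In CWR22Rv1 cells these ratios were 1.88, 11.9 and 6.38.

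Promoter sequence was matched for 6 of the 9 genes, from RefSeq on GRCh38.p14. The 250 bases before the start are shown for the mitochondrial enzymes MTHFD2 and MTHFD1L and the cytosolic enzymes MTHFD1 and SHMT1, since these differed in direction with APO. They lie at chr2:74198365-74198614 on the plus strand, chr6:150866236-150866485 on the plus strand (the first of the 4 starts listed for that gene), chr14:64388103-64388352 on the plus strand and chr17:18363551-18363800 on the minus strand. In GENCODE 29 the windows of MTHFD1L and MTHFD1 lie inside the annotated gene, downstream of its outermost start, and those of MTHFD2 and SHMT1 lie mostly upstream of the gene. Each is written 5′ to 3′ in the direction of transcription, with matches to TGATGNAA, a part of the composite element that ATF4 and C/EBP proteins bind, or to CACGTG, an E-box, in capitals.
MTHFD2: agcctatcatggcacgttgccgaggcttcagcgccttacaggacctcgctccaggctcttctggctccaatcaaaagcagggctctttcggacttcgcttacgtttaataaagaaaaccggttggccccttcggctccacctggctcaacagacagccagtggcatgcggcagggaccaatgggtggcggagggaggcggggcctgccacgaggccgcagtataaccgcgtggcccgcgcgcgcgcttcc
MTHFD1L: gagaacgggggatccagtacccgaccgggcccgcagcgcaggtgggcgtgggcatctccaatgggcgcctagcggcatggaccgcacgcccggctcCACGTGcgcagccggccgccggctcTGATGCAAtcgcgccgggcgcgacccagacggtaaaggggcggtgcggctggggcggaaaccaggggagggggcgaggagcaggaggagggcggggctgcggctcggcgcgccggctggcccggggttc
MTHFD1: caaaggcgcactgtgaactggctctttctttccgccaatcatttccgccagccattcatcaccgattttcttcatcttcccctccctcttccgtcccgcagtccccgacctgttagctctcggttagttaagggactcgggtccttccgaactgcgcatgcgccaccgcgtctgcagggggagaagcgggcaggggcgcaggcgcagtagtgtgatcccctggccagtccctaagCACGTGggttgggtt
SHMT1: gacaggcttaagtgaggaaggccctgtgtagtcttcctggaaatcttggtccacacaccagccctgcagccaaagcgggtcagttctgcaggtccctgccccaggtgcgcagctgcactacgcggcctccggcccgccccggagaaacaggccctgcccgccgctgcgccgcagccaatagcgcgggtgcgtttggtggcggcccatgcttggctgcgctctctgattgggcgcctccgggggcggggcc
MTHFD1L holds both words, with first bases at -129 (TGATGNAA) and -154 (CACGTG) from the start, as do the next 2 listed starts of this gene, whose windows hold the same letters, while the last holds neither. MTHFD1 holds CACGTG alone, at -15, and MTHFD2 and SHMT1 hold neither word. The promoters of PHGDH and PSAT1, searched over the same 250 bases before and 50 after the start, hold neither as well. On either strand TGATGNAA is in 3.62% and CACGTG in 7.26% of all 35116 RefSeq promoters, and the words do not overlap in MTHFD1L. A match describes these letters only. PSPH, SHMT2 and ALDH1L2 had no entry matched.

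The inhibitors were compared directly within each line. In C4-2B MDVR cells the serine synthesis and cytosolic folate enzymes were all within 1.2-fold between VER and APO, with differences of -0.17 to 0.07 on the log2 scale. Of all 9 genes, 1 was higher and 3 were lower with VER than with APO, against 28.5% and 32.5% of all genes, and these 4 were the mitochondrial enzymes. SHMT2, MTHFD2 and MTHFD1L stood at -0.35, -0.54 and -0.79, and ALDH1L2 at 0.47. The difference of SHMT2 was -0.20 and -0.17, under 1.2-fold, when libraries were rescaled to the same sum with and without the mitochondrial chromosome. In CWR22Rv1 cells 7 of the 9 genes were lower with VER than with APO, against 34.5% of all genes, with MTHFD1L lowest at -1.31 and MTHFD2 at -1.10. SHMT1, at 0.35, was the 1 gene higher, against 37.3% of all genes, and MTHFD1, at 0.24, was within 1.2-fold. Both depended on the scaling, SHMT1 being at 0.17 after rescaling to the same sum and MTHFD1 at 0.32 when the mitochondrial chromosome was left out. The share of FPKM on the mitochondrial chromosome differed between these libraries (25.7% and 10.4%), and its part in this comparison was not tested. The median of the mitochondrial enzymes was -1.05, and -0.96 after rescaling without that chromosome.

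The response to the same inhibitor differed in size between the lines for some enzymes, without a test. ALDH1L2 had a log2 fold change larger in C4-2B MDVR than in CWR22Rv1 cells by 1.30 with APO and 2.17 with VER. With VER the same difference was 1.13 for PSPH, 0.96 for SHMT2 and 0.91 for PSAT1, and with APO it was no larger than 0.59 for any gene other than ALDH1L2. For MTHFD1 it was 0.03 with APO and -0.14 with VER, the most even response of the 9 genes over both inhibitors.

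Between the DMSO controls, ALDH1L2 was 10.6-fold lower in C4-2B MDVR than in CWR22Rv1 cells, the largest difference of the 9 genes. PHGDH was higher by 1.58 and MTHFD1 by 0.67 on the log2 scale, SHMT2 was lower, at -0.73, and SHMT1 differed by 0.02. In all, 4 of the 9 genes were higher and 3 lower by over 1.2-fold, against 35.5% and 39.9% of all genes. After rescaling to a median ratio of 1 these were 3 higher and 4 lower, with PSAT1 at 0.20 and MTHFD2 at -0.30. The lines also differed in enzalutamide in the maintenance medium, which cannot be told apart from the line.

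Of 40 other genes of serine, folate and methionine metabolism, 36 passed the filter in both lines. In all 4 contrasts 7 were higher and 7 lower, 19.4% in each direction beside the 9.59% and 11.3% of all genes. Among the 7 higher, ALDH1L1 passed the filter only through inhibitor libraries in both lines, and FTCD and DMGDH did so in C4-2B MDVR cells. Such genes could hardly be called lower there, so the filter favours their count as higher. The same filter was applied to all genes. In single contrasts 36 (C4-2B MDVR) or 38 (CWR22Rv1) of these genes were compared. Of them 11 to 15 were higher and 14 to 18 were lower, with medians between -0.18 and 0.09. Of all genes, 32.1% to 37.7% were higher and 32.3% to 39.2% lower. BHMT and BHMT2, which remethylate homocysteine, were listed at 0 in all libraries. TYMS, thymidylate synthase, which spends one-carbon units on DNA synthesis, was lower in all 4 contrasts. It was at 76.8 FPKM under DMSO, 24.6 under APO and 21.3 under VER in C4-2B MDVR cells and at 99.7, 37.9 and 68.8 FPKM in CWR22Rv1 cells.

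Some carriers of folate and serine were lower as well. SLC19A1, the reduced folate carrier of the plasma membrane, was at 48.2 FPKM under DMSO, 24.0 under APO and 27.8 under VER in the first line and at 32.4, 7.49 and 15.8 FPKM in the second. SFXN1, which carries serine into mitochondria, was at 54.2 FPKM under DMSO, 32.5 under APO and 27.3 under VER in C4-2B MDVR cells and at 38.0, 28.3 and 26.7 FPKM in CWR22Rv1 cells, opposite in direction to SHMT2, which uses serine there. SFXN2 of the same family was lower too, with log2 fold changes from -0.50 to -1.38. SLC25A32, the mitochondrial folate carrier, had -0.48 and -0.68 in C4-2B MDVR cells and 0.10 and -0.16 in CWR22Rv1 cells. GCSH of the glycine cleavage system was lower by a small amount, from -0.28 to -0.52, and MTR, methionine synthase, was at -1.05, -0.79, -0.43 and -0.37.

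Of the 8 listed genes of serine transport and breakdown, SFXN1 and SFXN2 were lower in all 4 contrasts and SLC1A4, SLC1A5 and SDSL were higher. SLC1A4, a neutral amino acid transporter that carries serine, was at 3.59 FPKM under DMSO, 31.9 under APO and 26.6 under VER in C4-2B MDVR cells and at 15.7, 41.4 and 38.7 FPKM in CWR22Rv1 cells. SLC1A5, its glutamine-carrying relative, had log2 fold changes of 1.43, 1.44, 0.64 and 0.77. SDSL, a serine dehydratase-like protein, was at 14.6, 40.2 and 44.1 FPKM in C4-2B MDVR and at 27.4, 76.3 and 46.9 FPKM in CWR22Rv1 cells. DMGDH, a mitochondrial dimethylglycine dehydrogenase, was listed at 0 in C4-2B MDVR cells with DMSO and was at 3.62 and 2.81 FPKM with APO and VER, and in CWR22Rv1 cells it was at 0.984, 12.0 and 5.32 FPKM. FTCD, which passes a formimino group from histidine breakdown to folate, was also listed at 0 in that control and was at most 1.80 FPKM in any library. The size of the change of both in C4-2B MDVR cells rests on the pseudocount.

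Isoforms of the enzymes themselves were checked. ALDH1L1, the cytosolic counterpart of ALDH1L2, had 0.0233 and 0.0402 FPKM in the controls and at most 0.501 FPKM with an inhibitor, so ALDH1L2 was the more abundant form in every library. MTHFD2L, the second mitochondrial dehydrogenase, was between 9.08 and 14.6 FPKM in all 6 libraries, and MTHFD2 exceeded it 7.72-fold in C4-2B MDVR and 11.8-fold in CWR22Rv1 cells with DMSO and between 18.1-fold and 31.9-fold with an inhibitor.

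**Figure D4:**
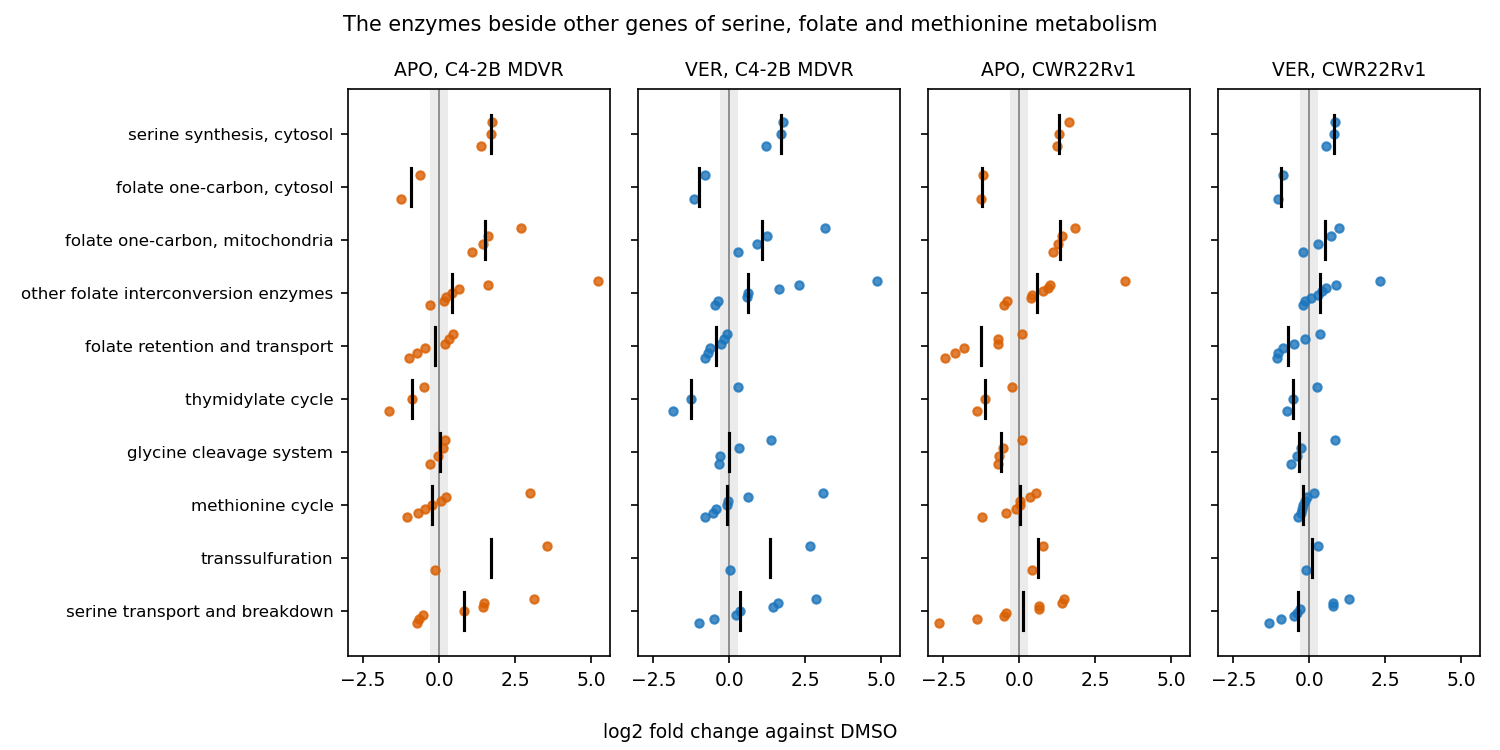
Log2 fold change against DMSO of the 9 enzymes (top 3 rows) and of other genes of serine, folate and methionine metabolism, 1 point per gene that passed the filter and 1 panel per contrast, with the list median as a black line and changes under 1.2-fold in grey. The list medians of the serine synthesis enzymes lie between 0.81 and 1.69 and those of the cytosolic folate enzymes between -1.23 and -0.93, and the points of DMGDH at 5.22 (APO) and 4.86 (VER) for the first line are set by the pseudocount, since the gene was listed at 0 with DMSO.

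The genes with changes most like those of the enzymes were sought among 7791 candidates whose mean over the 6 libraries was 10 FPKM or more, by Euclidean distance over the 4 inhibitor log2 fold changes, which is a description with no test. The 5 nearest to the medians of the serine synthesis enzymes were ATF4, STC2, ALCAM, CARS and SDSL, at distances of 0.213 to 0.304. ATF4 was at 246 FPKM under DMSO, 854 under APO and 812 under VER in C4-2B MDVR cells and at 263, 595 and 422 FPKM in CWR22Rv1 cells. PSAT1 and PSPH were at distances of 0.0910 and 0.263 from these medians, which they help to set, and PHGDH was farther away, at 0.675. For the mitochondrial folate enzymes the nearest were GHITM, PKIG, SLC25A36, CAMK2D and IFT43, at 0.135 to 0.207. MTHFD1L and ALDH1L2 were themselves at 1.17 and 2.44 from the medians of the mitochondrial enzymes, so these medians describe SHMT2 (0.292) and MTHFD2 (0.560) better than the other members.

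Reads of copies or of genes on the other strand could enter some of these values, since how the authors counted strand is not given in the sources used here. The annotated pseudogenes of PSAT1, PSPH, SHMT1 and MTHFD2 were listed at 0 in every library, and that of MTHFD1 was at 0.0221 FPKM in 1 library and listed at 0 in the others. How reads shared with these copies were assigned is not known. AC137834.2, an antisense gene that overlaps SHMT2, was at 0.425 FPKM under DMSO, 4.80 under APO and 8.23 under VER in C4-2B MDVR cells and between 0.248 and 0.346 FPKM in CWR22Rv1 cells. NDUFA4L2, also opposite SHMT2, was at 1.71, 4.12 and 5.12 FPKM in the first line and at 32.1, 17.7 and 21.5 FPKM in the second, beside SHMT2 levels of 177 FPKM and above. SMCR8, opposite SHMT1, was at 12.0, 8.81 and 10.9 FPKM and at 6.63, 5.28 and 6.42 FPKM. With APO it was lower past 1.2-fold in both lines, as SHMT1 was. With VER it was within 1.2-fold of the controls, where SHMT1 was lower past 1.2-fold. The part of these genes in the SHMT2 and SHMT1 values was not tested. C12orf45, which overlaps ALDH1L2 on the other strand, was at 22.5 FPKM in the C4-2B MDVR control, more than ALDH1L2 itself, and at 23.6 with APO and 16.6 with VER, without the increase of ALDH1L2. In CWR22Rv1 cells C12orf45 was at 7.62, 13.0 and 10.6 FPKM, higher with the inhibitors as ALDH1L2 was, and its part in the ALDH1L2 values was not tested.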

How the data were processed

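RNA-seq of 6 libraries was analysed, 1 for each combination of 2 cell lines (C4-2B MDVR and CWR22Rv1) and DMSO, 10 µM APO or 10 µM VER for 48 h. Groups were taken from the sample titles. The authors deposited FPKM for each gene, and the submitters' processing notes name HISAT, Cufflinks, Cuffnorm and GRCh38, while the paper also names TopHat and StringTie. Versions and the annotation release are not given in the sources used here. The labels describe a stranded kit with poly(A) selection and the paper an Illumina TruSeq kit. Gene identifiers were matched to GENCODE 29 (57047 of 60658 had a symbol), and coordinates are from GENCODE 29 on GRCh38.

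Fold changes are differences of log2(FPKM + 0.1) between 2 libraries, for genes above 0.1 FPKM in at least 1 library of the line (of all 6 between lines), called past 1.2-fold. The 1.2-fold limit is that of the paper, which states a filter on expression above 0.1 for its principal component analysis. The rule of at least 1 library and the added 0.1 were chosen here. With 1 library per condition no test was made. FPKM are not counts, so no counting error is given, and relative depth was read from the most frequent ratio of values of 0.001 to 0.05 FPKM between libraries. Genes named besides the 9 enzymes are those past 1.2-fold in the same direction in all 4 inhibitor contrasts among 40 listed pathway genes, the partners ALDH1L1, MTHFD2L, SLC25A32, SFXN1 and TYMS, ATF4, and the 5 genes nearest in their changes. BHMT, BHMT2, the S phase and luminal marker genes, the pseudogenes and the overlapping genes were named outside this rule, after their values were seen. The members and lists were chosen with earlier results of these data known. Alternatives were pseudocounts of 0.01 and 1, no filter, stricter filters of 0.1 FPKM in all libraries and 1 FPKM in 1 library, rescaling to a median ratio of 1, to the same sum (TPM) or to the same sum without the mitochondrial chromosome, and thresholds of 1.5-fold and 2-fold. Some listed pathway and marker genes are not reported here by name, and protein sequences were not analysed here. The calculations were tested on simulated data. Python 3.11.15, pandas 2.3.3, numpy 2.4.6 and matplotlib 3.10.9 were used.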

Additional observations from a re-analysis of the deposited data

Results flagged for a closer look

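MTHFD1L, the mitochondrial formyl-tetrahydrofolate synthetase, had opposite signs in the lines with VER, 0.29 for C4-2B MDVR and -0.21 for CWR22Rv1 cells on the log2 scale, and the difference was not tested. For MTHFD2L, the second mitochondrial dehydrogenase, the same values were -0.47 and 0.05. SLC25A32, the mitochondrial folate carrier, had opposite signs with APO, at -0.48 in the first line and 0.10 in the second. Each value compares 1 library with 1 library. With APO, MTHFD1L had the same sign in both lines, at 1.08 and 1.10. Groups of 1 library could not be searched for libraries far from the others.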

How the results depend on the processing

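No paired analysis was possible because each group holds 1 library. In the 4 contrasts with DMSO, the medians of the serine synthesis, cytosolic and mitochondrial folate enzymes and the difference between mitochondria and cytosol kept their direction and stayed past 1.2-fold under each pseudocount, filter and rescaling tried. That difference lay between 2.43 and 2.45 (APO) and 2.03 and 2.05 (VER) in C4-2B MDVR and between 2.51 and 2.58 and 1.42 and 1.45 in CWR22Rv1 cells. At 2-fold, 1 gene was lower with either inhibitor (APO 1, VER 1) in C4-2B MDVR, and 0 were higher and 1 lower with VER in CWR22Rv1 cells. Between the DMSO controls the median of the serine synthesis enzymes was 0.20 and 0.18, and that of the cytosolic folate enzymes 0.24 and 0.22, after rescaling to a median ratio of 1 and without the mitochondrial chromosome, all under 1.2-fold. There 2 genes were higher at 1.5-fold and 1 at 2-fold, and 1 lower at 2-fold. For VER against APO in CWR22Rv1 cells the cytosolic median was 0.11 with TPM, and 2, 0 and 2 genes were higher with a median ratio of 1, TPM and without the mitochondrial chromosome, 0 at 1.5-fold and 2-fold, and 2 lower at 2-fold. In C4-2B MDVR cells 0 were higher at 1.5-fold and 2-fold, and 1 and 0 lower. The shares of all genes past 1.5-fold and 2-fold in single contrasts were not computed. The counts at these thresholds therefore have no background beside them. With geometric means in place of sums the ratio of mitochondrial to cytosolic FPKM was 0.408, 2.57 and 2.16 in C4-2B MDVR and 1.03, 6.43 and 2.71 in CWR22Rv1 cells with DMSO, APO and VER, since SHMT2 and MTHFD2 make up most of the sums. TPM moved the median change of genes above 1 FPKM to between -0.23 and 0.17. Among single genes, SHMT2 with VER in CWR22Rv1 cells was the enzyme that fell under 1.2-fold against DMSO (0.22 with TPM). TGATGNAA was in 2.03% of promoters of protein-coding genes above 1 FPKM. With FPKM and 1 library per condition, the precision of low values such as ALDH1L2 in the C4-2B MDVR control is unknown.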
